A study of Mus musculus with 3 samples.

Results

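Chromatin-associated RNA of mouse macrophages was examined for 64 genes that encode enzymes writing or erasing histone and DNA modifications. Members were chosen by gene symbol as the lysine demethylase (Kdm, 18 genes), lysine methyltransferase (Kmt, 8; Setd, 10; Ezh, 2), histone deacetylase (Hdac, 11), sirtuin (Sirt, 7), DNA methyltransferase (Dnmt, 5) and Tet (3) families, with at least 1 protein-coding transcript required. They are 64 of 55450 annotated genes, 21901 of which have a protein-coding transcript. Family membership follows the symbol, so a few members act on substrates other than histones. A symbol does not establish which residue is modified, or that the protein is an active enzyme. Another 4 entries with matching symbols have no protein-coding transcript and were not counted as members.

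All 3 libraries belong to 1 group. They come from primary C57BL/6J macrophages grown from bone marrow. The cells had 12 hours of Lipid A at 100 ng/ml, then 12 hours after washing it out, then 50 minutes of Lipid A at 100 ng/ml. Lipid A is the part of bacterial lipopolysaccharide that Toll-like receptor 4 senses. Age and sex were not collected, and 1 donor entry is named for all libraries, so the spread between them may be technical. The RNA was ribosomal-RNA-depleted total RNA of the chromatin fraction, started from 1 µg in replicate 1, 250 ng in replicate 2 and 500 ng in replicate 3. Amount of starting RNA and library cannot be told apart. With a single group, every value below is a level and none is a response to Lipid A.

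Histones carry acetyl and methyl groups on lysines of their tails, and enzymes add and remove them. Methylation of lysine 4 of histone H3 (H3K4) marks promoters and enhancers, H3K27 methylation by Ezh1 and Ezh2 marks genes silenced by Polycomb complexes, and H3K9 methylation marks heterochromatin. Dnmt enzymes methylate cytosine in CpG dinucleotides and Tet enzymes oxidise that mark. In macrophages, Kdm6b, an H3K27 demethylase, is known as a gene induced through Toll-like receptors, Setdb2 as one induced by interferon, and Hdac3 as a deacetylase of the nuclear receptor corepressor complexes.

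The start regions of 4 members are shown because the results below turn on these genes: Tet2 had the highest mean TPM over all transcripts, Dnmt3b was not detected, and Setdb2 and Setdb1 form the pair whose ratio varied most between libraries. Each is the RefSeq window from 250 bases before to 50 bases after an annotated start, build GRCm38.p6 (the assembly of mm10), written 5′ to 3′ on the gene's strand with CpG dinucleotides, the sites of DNA methylation, in capitals. They were chosen after the levels were known.
Tet2, chr3:133544341-133544640, minus strand: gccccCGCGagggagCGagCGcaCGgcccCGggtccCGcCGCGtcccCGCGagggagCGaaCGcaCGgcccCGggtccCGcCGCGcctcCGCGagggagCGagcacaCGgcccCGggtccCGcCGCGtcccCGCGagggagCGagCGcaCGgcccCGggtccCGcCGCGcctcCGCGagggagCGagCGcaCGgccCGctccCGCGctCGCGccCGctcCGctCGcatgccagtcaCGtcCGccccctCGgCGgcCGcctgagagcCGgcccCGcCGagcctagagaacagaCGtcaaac
Setdb2, chr14:59440831-59441130, minus strand: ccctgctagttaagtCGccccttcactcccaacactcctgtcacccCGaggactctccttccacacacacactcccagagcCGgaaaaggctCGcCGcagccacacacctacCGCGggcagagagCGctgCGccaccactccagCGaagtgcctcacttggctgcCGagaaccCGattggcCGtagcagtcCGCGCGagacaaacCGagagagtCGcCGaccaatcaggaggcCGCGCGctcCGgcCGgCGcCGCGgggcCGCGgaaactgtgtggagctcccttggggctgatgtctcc
Setdb1, chr3:95357153-95357452, minus strand: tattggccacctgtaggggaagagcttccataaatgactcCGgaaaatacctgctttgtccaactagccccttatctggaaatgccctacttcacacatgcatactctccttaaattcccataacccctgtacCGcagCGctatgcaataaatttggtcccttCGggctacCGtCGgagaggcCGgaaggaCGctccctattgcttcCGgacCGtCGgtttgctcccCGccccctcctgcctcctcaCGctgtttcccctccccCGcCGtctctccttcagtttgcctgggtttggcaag
Dnmt3b, chr2:153649199-153649498, plus strand: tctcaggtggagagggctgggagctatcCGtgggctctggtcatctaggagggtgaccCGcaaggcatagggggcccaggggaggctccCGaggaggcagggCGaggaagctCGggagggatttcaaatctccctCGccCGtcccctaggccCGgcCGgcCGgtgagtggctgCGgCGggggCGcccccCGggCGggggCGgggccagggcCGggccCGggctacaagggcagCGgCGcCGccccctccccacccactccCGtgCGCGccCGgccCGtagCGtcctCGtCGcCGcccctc
The Tet2 window held 57 CpG in 300 bases, the Dnmt3b window 30, the Setdb2 window 29 and the Setdb1 window 15. A CpG-rich window was thus present both at a gene with a high level and at one not detected. The Tet2 window starts at a RefSeq start 749 bases from the GENCODE gene start, against 4 bases for Setdb2, 1 base for Dnmt3b and 0 for Setdb1. Such windows were found for 52 members, 74 windows in all, with several start sites for some genes, and 12 members have none in the table. Their median was 22 CpG (range 0 to 65), against 14 over 20148 windows of all coding genes, and 57 of the 74 (77.0%) held at least 15 CpG, against 48.4%. Windows of the same gene can overlap, so the 74 are not independent. A search of both strands for the pattern of the interferon-stimulated response element, GAAA and GAAA separated by any 2 bases, matched 0 of 74 windows, against 3.41% of coding-gene windows. The kappaB pattern, GGG and CC separated by any 5 bases, matched 53 (71.6%), against 58.1%. The median share of G and C bases was 62% in member windows and 57% in coding-gene windows, and the matches were not adjusted for it. Both patterns were searched independently of each other, and a match is a description of letters, not a binding site.

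Most of the enzymes were present in the chromatin RNA. Levels are deposited TPM values, the share of transcripts after correction for transcript length, scaled to a fixed total. A gene counts as detected where no library has a TPM under 1. By that rule 55 of the 64 members (85.9%) were detected, against a background of 39.4% of the 21901 coding genes. That background also applies to the family counts below. Where every library reached a TPM of 10, the count was 31 (48.4%, against 16.9%), and at 50 it was 10 (15.6%, against 4.46%); these higher levels were set after the values were seen. The median over members of the mean TPM was 12.2, against 0.373 over all coding genes and 10.01 over the detected ones. Members together held 0.679% ± 0.0749 (SD, n = 3) of expected counts, the estimated reads per gene, in libraries of 13897176, 19597343 and 19348626 such counts for replicates 1, 2 and 3. Mean TPM was over 100 for 2 members, 50 to 100 for 12, 10 to 50 for 22, 1 to 10 for 20 and under 1 for 8. All values below are mean ± SD over n = 3 libraries unless replicates are named.

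**Figure D1:**
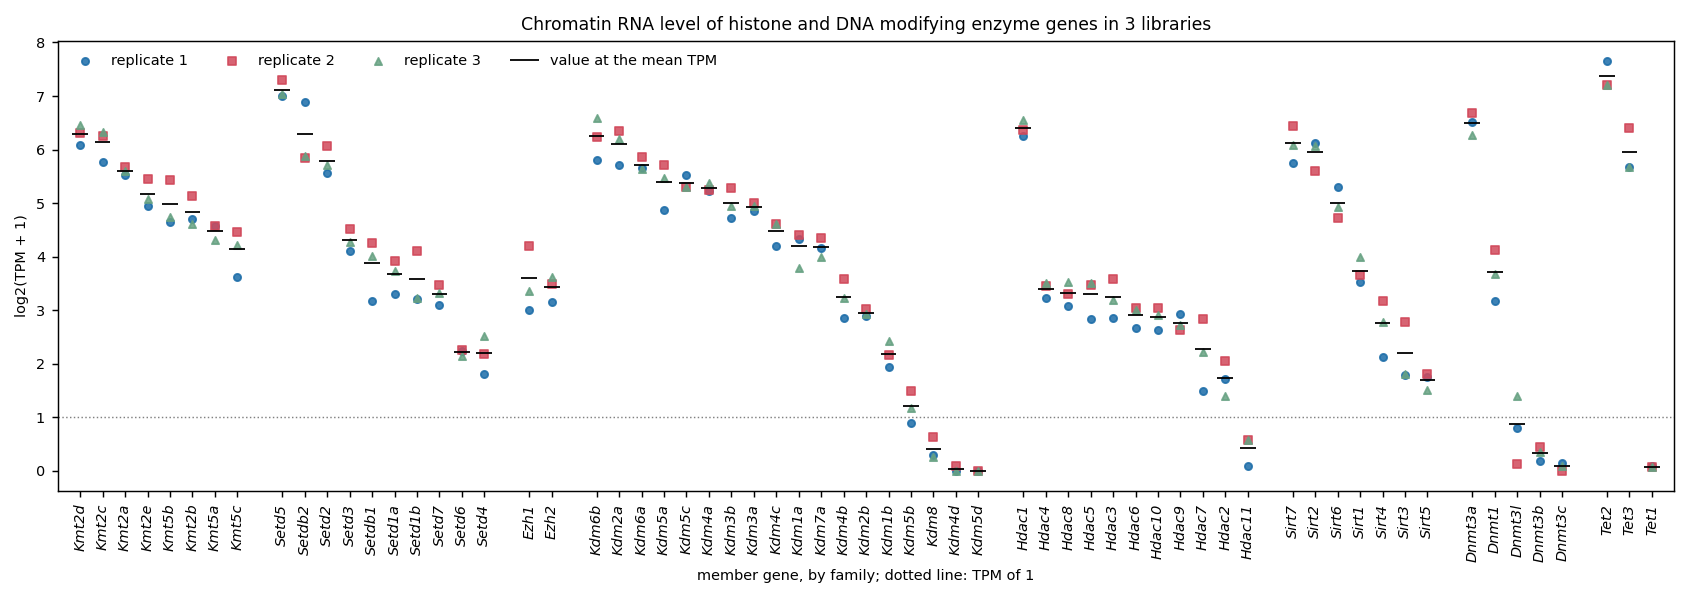
Level of each of the 64 members in the 3 libraries, on the y axis as log2(TPM + 1), with genes grouped by family on the x axis and the black bar at the mean TPM. The dotted line marks a TPM of 1; Tet2 (mean TPM 165) and Setd5 (138) lie highest, and 9 members have at least 1 library under the line.

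The macrophage label was matched by marker genes, with 8 of 8 macrophage markers detected at a median mean TPM of 136. Adgre1, the F4/80 antigen, was at 418 ± 109. None of the 5 neutrophil, 4 B cell, 5 T cell, 5 fibroblast or 4 erythroid markers was detected by alignment, and the summed TPM of the fibroblast list was 0, 1.52 and 1.58 in replicates 1, 2 and 3. In the read-based table, a second deposited quantification made directly from the reads, the T cell marker Cd3d, at 0 by alignment, had 15.7 ± 3.18 and Cd8a 1.57 ± 0.173, while Cd3e was at 0.0655 and Trbc1 at 0. In bulk RNA, fewer cells of a type and less RNA per cell cannot be told apart.

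Genes with Kmt, Setd and Ezh symbols were detected without exception: 8 of 8 Kmt, 10 of 10 Setd and 2 of 2 Ezh genes. The Kmt family had a median mean TPM of 32.8, the second highest family median after Tet. Kmt2d, which with Kmt2c monomethylates H3K4 at enhancers, had TPM values of 67.03, 78.50 and 86.97 in replicates 1, 2 and 3, a mean of 77.5 ± 10.01. Kmt2c had 53.16, 75.27 and 79.15 (69.2 ± 14.0). Both were lowest in replicate 1, and their ranges overlapped. Within libraries Kmt2d exceeded Kmt2c in 3 of 3, and the log2 ratio of Kmt2c to Kmt2d, on the log2(TPM + 1) scale used for all ratios here, was −0.17 ± 0.14.

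Kmt2a, the mixed-lineage leukaemia methyltransferase, stood at 45.31, 49.98 and 47.32 and was the member with the smallest relative spread, a coefficient of variation of 4.93%. Kmt2b, its paralog, had 25.02, 34.11 and 23.36, below every Kmt2a value. The log2 ratio of Kmt2a to Kmt2b was 0.79 ± 0.23, a 1.72-fold higher level (log2 ratio 2.22 in CPM, counts scaled to library size without length correction). Kmt2e, a member of the family regarded as lacking robust methyltransferase activity, was at 35.03 ± 6.88. The remaining H3K4 enzymes with a fixed pair were Setd1a and Setd1b, which trimethylate H3K4 at promoters. Setd1a had 8.84, 14.13 and 12.35 and Setd1b had 8.27, 16.13 and 8.34, so the values interleaved (log2 ratio 0.14 ± 0.35). Setd1a was the higher in every library in the read-based table (1.01) and over coding transcripts (0.50). For methylation of H4K20, Kmt5a, which adds the first methyl group, was at 21.4 ± 2.21. Kmt5b and Kmt5c, which add the later ones, were at 30.6 ± 9.92 and 16.6 ± 4.89. Kmt5c was the lowest of the Kmt family.

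Setd5 had the highest level among the methyltransferase symbols and the second highest of all members in mean TPM over all transcripts. Its TPM was 127.76, 155.79 and 130.66, a mean of 138 ± 15.4, above every other Setd gene in all 3 libraries. Over coding transcripts it was at 27.4, below Setdb2 (52.7) and Setd2 (30.01). Setd2, which trimethylates H3K36 behind RNA polymerase II, had 46.12, 66.13 and 51.23. At the lower end were Setd4 (3.60 ± 1.13) and Setd6 (3.63 ± 0.186), a methyltransferase reported to modify the NF-kappaB subunit RelA. Setd6 had a coefficient of variation of 5.11%, the second lowest of the detected members. Only 42, 68 and 62 expected counts in replicates 1, 2 and 3 lie behind it, so that rank is uncertain.

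Setdb2 and Setdb1, SET-domain proteins of the H3K9 methyltransferase branch, gave the pair ratio with the largest spread between libraries. Setdb2 had TPM values of 117.09, 56.63 and 58.08, with replicate 1 far above the others. Setdb1 had 7.96, 18.13 and 15.13, with replicate 1 lowest. Setdb2 was above Setdb1 in 3 of 3 libraries, and the log2 ratio of Setdb1 to Setdb2 was −2.39 ± 1.16. Replicate 1 decides much of the size: without it the log2 ratio was −1.73, a 3.32-fold difference against 5.26-fold with it, and in CPM it was −1.24. The span of Setdb1 overlaps the coding gene Cers2 over 75 bases, itself at a TPM of 37.2, and what the overlap adds was not tested.

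The catalytic subunits of Polycomb repressive complex 2 were both present at a moderate level. Ezh2 had 7.85, 10.25 and 11.34 (9.81 ± 1.79) and Ezh1 had 7.03, 17.32 and 9.25 (11.2 ± 5.42). Their log2 ratio was 0.10 ± 0.53 with Ezh1 higher in 1 of 3 libraries, and leaving out replicate 2 turned the ratio to −0.20. In other measures Ezh1 was the higher gene in all 3 libraries, with a log2 ratio of 0.37 in the read-based table, 1.00 over coding transcripts alone and 0.93 in CPM. The order thus depended on the measure used. The enzymes that remove the same mark were higher: Kdm6b had 55.07, 74.15 and 95.36 (74.9 ± 20.2) and Kdm6a, its X-linked paralog, had 49.34, 56.99 and 48.65 (51.7 ± 4.63). Kdm6b exceeded Kdm6a in each library, by a log2 ratio of 0.16, 0.37 and 0.96, but the ranges of the genes overlap. That order was not kept in the read-based table. There Kdm6b had 60.0, 68.0 and 88.6 and Kdm6a 61.6, 69.7 and 58.8, so Kdm6b was lower in replicates 1 and 2, and the log2 ratio was 0.17. The antisense entry Kdm6bos, at a TPM of 14.2 ± 2.88, overlaps Kdm6b, and its part in the Kdm6b value was not tested. Summed over the pair, the H3K27 demethylases had a TPM of 127 ± 20.2 and the H3K27 methyltransferases 21.01 ± 6.36, with no overlap between libraries. A sum of RNA levels says nothing of enzyme activity.

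**Figure D2:**
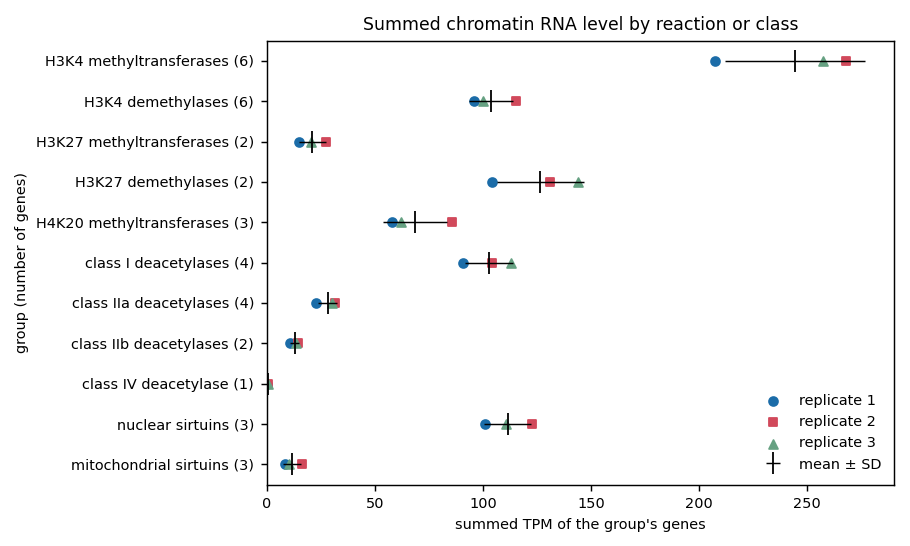
Summed TPM (x axis) of the members of 11 groups by reaction or class, in each library, with mean ± SD over n = 3. H3K4 methyltransferases (244 ± 32.3) have the highest sum, but groups differ in size (number of genes in brackets), and the median per gene was 37.5 there against 63.3 for the H3K27 demethylases. The summed H3K27 demethylases lie above the H3K27 methyltransferases in every library. The grouping was drawn up after the values had been seen.

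Among demethylases, 14 of 18 Kdm genes were detected, with a family median of 19.3. Kdm6b had the highest mean of the family. Kdm2a, an H3K36 demethylase with a CpG-binding zinc finger, was at 51.28, 80.25 and 71.95 (67.8 ± 14.9). It exceeded Kdm6b in replicate 2, and its read-based mean was higher (97.5 against 72.2). Its paralog Kdm2b had 6.45, 7.11 and 6.61, a coefficient of variation of 5.12%. The log2 ratio of Kdm2a to Kdm2b was 3.13 ± 0.28, or 8.77-fold. The H3K4 demethylases Kdm5a and Kdm5c had similar TPM over all transcripts: Kdm5a had 28.35, 51.70 and 43.02, Kdm5c 44.99, 38.20 and 38.56, and their log2 ratio was −0.02 ± 0.56. Without replicate 1 it became 0.29. Over coding transcripts alone Kdm5c was higher in every library, at a mean TPM of 31.9 against 8.67, a log2 ratio of −1.84 or a 3.58-fold difference.

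Kdm1a (LSD1), the flavin-dependent H3K4 demethylase of the CoREST complex, was at 17.3 ± 3.93 and its paralog Kdm1b at 3.56 ± 0.770. Over coding transcripts alone the difference was small, with Kdm1a at 3.50 ± 0.605 and Kdm1b at 2.81 ± 0.416. The H3K9 demethylases were Kdm3a at 29.6 ± 1.70, Kdm3b at 30.9 ± 6.34, Kdm4a at 37.8 ± 2.28, Kdm4b at 8.54 ± 2.37 and Kdm4c at 21.4 ± 3.55. Kdm7a, which acts on H3K9 and H3K27, was at 17.1 ± 2.18. The 4 Kdm genes not detected were Kdm5b (0.86, 1.80 and 1.24), Kdm8 (0.23, 0.55 and 0.20), Kdm4d (0, 0.06 and 0) and Kdm5d. Kdm5b missed the rule only in replicate 1. Kdm5d, on the Y chromosome, was listed at 0 in all 3 libraries, where a count of 0 allows up to 3 counts or a TPM of 0.0624, 0.0480 and 0.0521 in replicates 1, 2 and 3 (counting error only).

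Of the 11 histone deacetylase genes, 10 were detected. In TPM over all transcripts, the family median of 6.53 was lower than in the other families apart from Dnmt. Hdac1, the catalytic subunit of the Sin3, NuRD and CoREST complexes, was the exception at 74.87, 81.46 and 92.81 (83.0 ± 9.07). Hdac2, its close paralog in the same complexes, had 2.28, 3.13 and 1.62. Every Hdac1 value lay above every Hdac2 value and the log2 ratio was 4.67 ± 0.44, or 25.5-fold. The ratio depends on transcript class, and over protein-coding transcripts alone it was 2.75, or 6.73-fold. Hdac3 was at 8.46 ± 2.38 and Hdac8, the other class I enzyme, at 8.98 ± 1.56. Over coding transcripts the family medians were 3.78 for Hdac, 3.67 for Sirt and 4.35 for Ezh, so Hdac was not below Sirt there.

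The class IIa deacetylases, which shuttle between nucleus and cytoplasm, were Hdac4 (8.36, 9.95 and 10.36), Hdac5 (6.09, 10.08 and 10.41), Hdac9 (5.80 ± 0.752) and Hdac7 (1.79, 6.17 and 3.63). Hdac4 and Hdac5 had a log2 ratio of 0.13 ± 0.24, with Hdac4 higher in 1 of 3 libraries. Hdac4 was the higher gene in every library in the read-based table (log2 ratio 0.81), over coding transcripts (0.96) and in CPM (0.64), and the ratio was −0.12 with posterior mean TPM. Hdac7 had the largest relative spread of the detected members, a coefficient of variation of 56.9%. Of class IIb, Hdac6, a tubulin deacetylase, was at 6.53 ± 1.00 and Hdac10, a polyamine deacetylase, at 6.31 ± 1.01. Hdac11, the single class IV enzyme, was not detected (0.06, 0.48 and 0.48). These values rest on 2, 12.61 and 3 expected counts, and its posterior mean TPM averaged 3.59.

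All 7 sirtuins, NAD-dependent deacylases, were detected. Sirt7, a nucleolar sirtuin, had 52.43, 85.96 and 66.48 (68.3 ± 16.8), and Sirt2, mainly cytoplasmic, had 68.95, 47.67 and 66.32 (61.0 ± 11.6). The nuclear sirtuin Sirt6 was at 31.0 ± 6.59 and Sirt1 at 12.4 ± 2.32. Genes of the mitochondrial sirtuins were lowest by alignment: Sirt4 at 5.76 ± 2.33, Sirt3 at 2.45, 5.86 and 2.50, and Sirt5 at 2.35, 2.49 and 1.86. Sirt3, the main mitochondrial deacetylase, had a coefficient of variation of 54.2%, second to Hdac7, and Ezh1 followed at 48.3%. Summed, the nuclear sirtuins had a TPM of 112 ± 10.9 and the mitochondrial ones 11.6 ± 4.26. Sirt2 overlaps the NF-kappaB inhibitor gene Nfkbib over 778 bases (TPM 53.6) and Sirt7 the transcription factor gene Mafg over 124 bases (52.1). Sirt3 overlaps the coding genes Ric8a over 707 bases (16.4) and Psmd13 over 342 bases (19.7). Whether reads of those neighbours enter the Sirt2, Sirt7 and Sirt3 values was not tested.

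DNA-modifying enzymes ranged from some of the highest levels to some of the lowest, with Dnmt1 near the median of all members. Dnmt3a, a de novo methyltransferase, had 89.85, 101.53 and 76.17 (89.2 ± 12.7). Dnmt1, which copies methylation after replication, had 7.96, 16.46 and 11.72 (12.0 ± 4.26). Dnmt1 was below Dnmt3a in 3 of 3 libraries at a log2 ratio of −2.83 ± 0.44, a 7.12-fold difference. The other de novo enzyme, Dnmt3b, had 0.13, 0.36 and 0.27, and the log2 ratio of Dnmt3a to Dnmt3b was 6.16 ± 0.21. Since Dnmt3b lies near 0, the size of that ratio depends on the pseudocount of 1, and with a pseudocount of 0.1 it was 8.03. Dnmt3l, a catalytically inactive cofactor of germ cells, had 0.75, 0.09 and 1.64. These values rest on 5, 2 and 12 expected counts, and its posterior mean TPM averaged 3.40. Dnmt3c, a germline methyltransferase of rodents, had 0.11, 0 and 0.06.

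Tet2, the Tet enzyme most often mutated in human blood cancers, had the highest mean TPM over all transcripts, with TPM values of 199.86, 146.72 and 147.05 (165 ± 30.6). Tet3 had 49.84, 84.06 and 50.23 (61.4 ± 19.6), and Tet1, known from embryonic stem cells, had 0.06, 0.05 and 0.05. The first rank of Tet2 did not hold over coding transcripts, where Kmt2d (75.6), Dnmt3a (68.3), Kmt2c (56.8) and Setdb2 (52.7) lay above its 49.3. In CPM, Kmt2d was highest at 853, against 605 for Tet2. Every Tet2 value lay above every Tet3 value, at a log2 ratio of 1.44 ± 0.60 or 2.71-fold. Tet2 was above Tet1 in 3 of 3 libraries. Tet1 rests on 2 to 6 counts, so the size of their log2 ratio depends on the pseudocount and the measure: it was 7.28 ± 0.25 with a pseudocount of 1, 10.05 with 0.1, 8.93 in CPM, 5.88 with posterior mean TPM and 5.63 over coding transcripts. Over coding transcripts alone, the Tet2 to Tet3 ratio was 0.19 and Tet2 was no longer higher in every library.

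The comparison of 14 pairs of related genes was tested within libraries with an exact two-sided sign-flip permutation test. In 10 pairs the same gene was higher in every library, which gave an exact permutation p = 0.25 in each, the smallest p that 3 libraries allow, and 0.35 after Benjamini-Hochberg adjustment over the 14. No pair could therefore pass a threshold of 0.05, whatever the size of its ratio. In Ezh1 and Ezh2, Hdac4 and Hdac5, Kdm5a and Kdm5c, and Setd1a and Setd1b the sign differed between libraries. The order in every library was lost for Kdm6b to Kdm6a in the read-based table (exact permutation p = 1) and for Tet2 to Tet3 over coding transcripts (exact permutation p = 0.75).

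**Figure D3:**
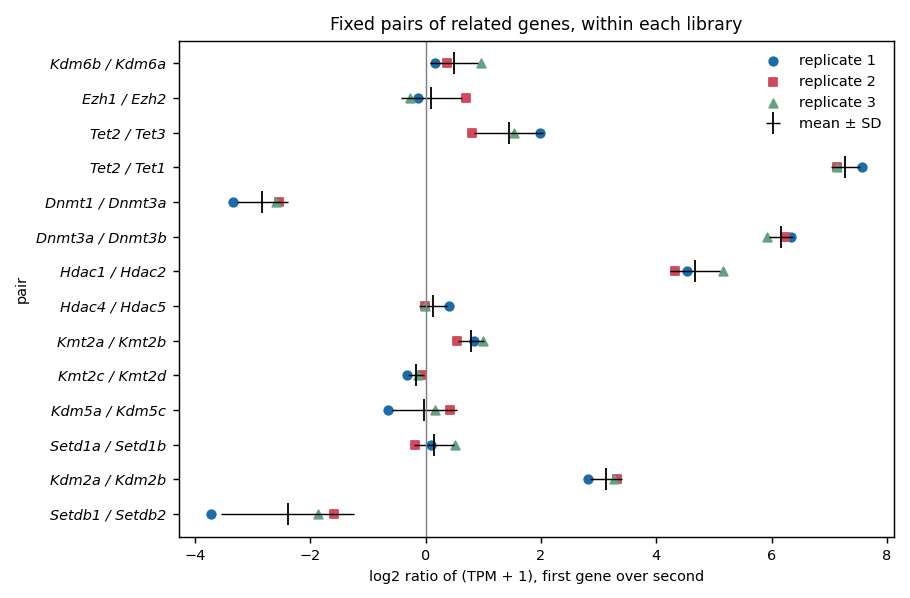
Log2 ratio of (TPM + 1) of the first gene over the second (x axis) for the 14 pairs, by library, with mean ± SD (n = 3). In 10 pairs all 3 libraries lie on the same side of 0, and the Setdb1 to Setdb2 pair has the widest spread (SD 1.16).

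Many members were represented by transcripts annotated as retaining an intron. Chromatin RNA holds incompletely spliced RNA, and its reads were not told apart from those of annotated retained-intron transcripts. In 10 of the 55 detected members (18.2%) such transcripts held over 50% of the gene's TPM in every library, against 18.7% of the 8625 detected coding genes, so the members' share was near the background. Among genes with such a transcript annotated, the shares were 10 of 46 and 28.2%. The count rests on the libraries and the table used, being 16 without replicate 3 and 17 in the read-based table. The 10 were Hdac1 (81.0%), Kdm1a (78.7%), Sirt7 (76.6%), Sirt4 (70.8%), Setd5 (67.6%), Kdm2b (61.1%), Ezh2 (60.1%), Kdm6a (56.7%), Tet2 (55.4%) and Sirt2 (55.1%). Several of the highest members are on this list, and their levels over protein-coding transcripts alone were lower, with Setd5 at a TPM of 27.4 instead of 138, Tet2 at 49.3 instead of 165 and Hdac1 at 15.8 instead of 83.0. Over all members, coding transcripts held a summed TPM of 941 ± 72.7, of 1795 ± 134 for all transcripts.

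By TPM, which corrects for length, a short annotated transcript held the largest part of the Hdac1 level. Its share of reads was not computed. Hdac1-206, 844 nucleotides with a retained intron, had TPM values of 47.53, 38.47 and 62.32, or 59.5% of the gene's mean TPM, against 14.31, 14.97 and 18 for the coding transcript Hdac1-201. In Tet2, the full coding transcript Tet2-201 (9179 nucleotides) was the leading one at 45.2 ± 2.81, ahead of the retained-intron transcript Tet2-208 at 33.7 ± 1.49. In the read-based table that order turned, with Tet2-201 at 15.1 ± 3.96 below Tet2-208 at 27.7 ± 3.70. In Setd5 the leader was a retained-intron transcript, Setd5-209, at 28.6 ± 3.57. Kdm6b has only 2 annotated transcripts. Kdm6b-201, which codes for the protein, had 32.76, 44.37 and 63.50, and the 743-nucleotide processed transcript Kdm6b-202 had 22.30, 29.78 and 31.86. Setdb2-205, a coding transcript, led Setdb2 at 55.97, 30.99 and 39.92, and a shorter transcript of it with a retained intron had 34.95, 12.70 and 8.57. In both, replicate 1 was highest.

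**Figure D4:**
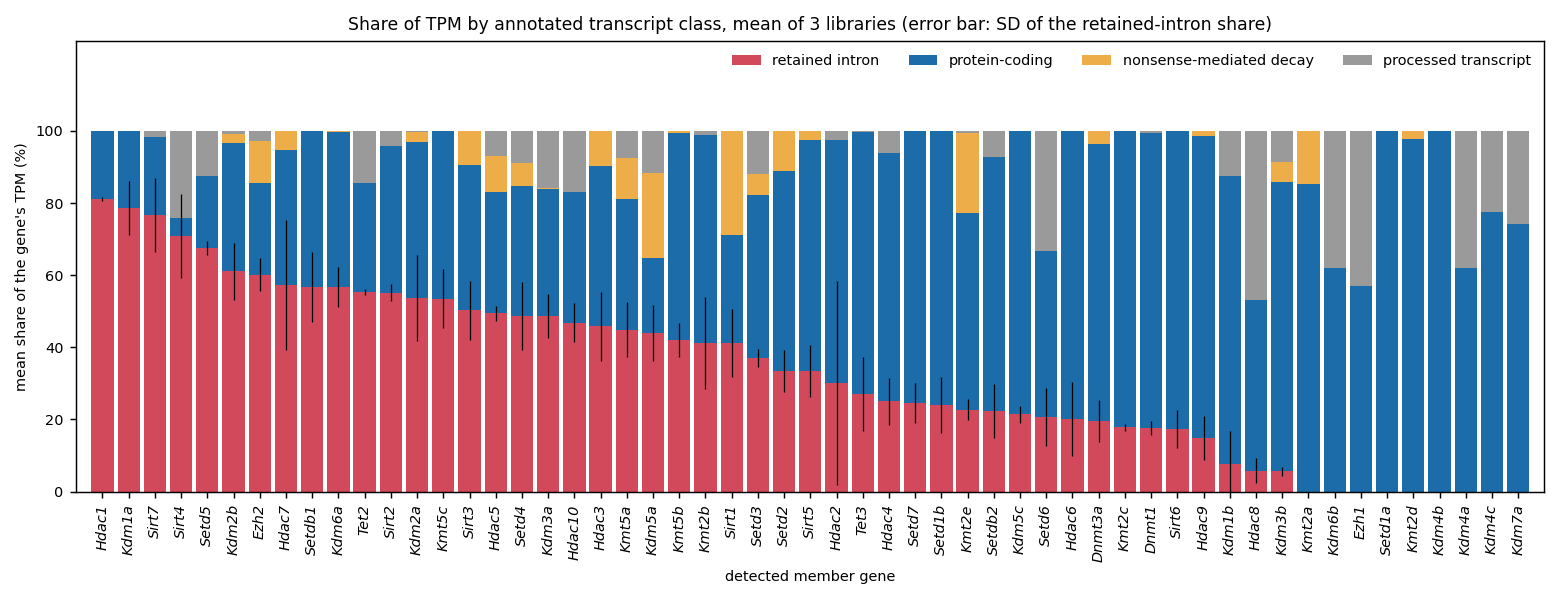
Mean share of each detected member's TPM (y axis, %) held by retained-intron, protein-coding, nonsense-mediated decay and processed transcripts; the bars start at 0 and the error bars are the SD of the retained-intron share (n = 3). Hdac1 is farthest left at 81.0%; Hdac7, Setdb1, Kdm2a, Kmt5c and Sirt3 also have a mean over 50% but not in every library.

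The order of members was similar in both deposited quantifications. The read-based table ranked the 64 members with a Spearman correlation of 0.964 to the alignment-based one, across genes that share the same libraries. In 4 members (6.25%) the read-based level was over 2-fold higher in every library on the log2(TPM + 1) scale, against 10.6% of coding genes, and in 0 it was over 2-fold lower (0.00457% of coding genes, 1 gene). For Sirt5 the mean TPM was 2.23 by alignment and 20.4 in the read-based table, where the coding transcript Sirt5-209 had 17.2 ± 0.494 against 0.59 ± 0.269. For Kdm4b the values were 8.54 and 24.2, and Kdm4b-206, 130 nucleotides long, was at 0 by alignment and 14.0 ± 2.11 in the read-based table. The deposited posterior mean TPM of Kdm4b was higher still, at 46.1. Kdm2b had 6.72 and 15.4. Kdm5d, listed at 0 by alignment, had 6.28, 5.42 and 4.55 in the read-based table. It is a homolog of the X-linked Kdm5c, and values of genes with similar copies are uncertain. The Y-linked Ddx3y and Eif2s3y were likewise at 0 in all 3 libraries by alignment, while the X-linked noncoding gene Xist was at 1044 ± 18.8. The source of the read-based Kdm5d value was not tested.

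**Figure D5:**
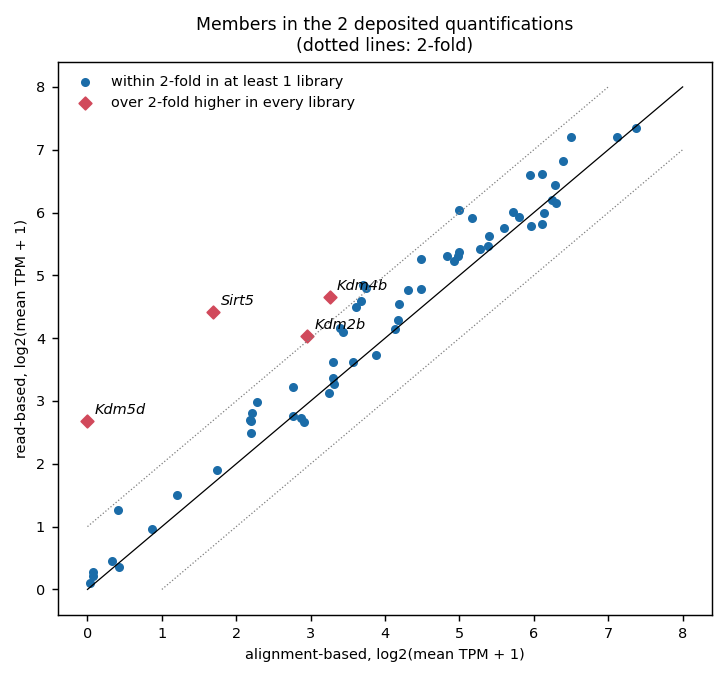
Mean level of the 64 members in the alignment-based table (x axis) and the read-based table (y axis), both as log2(mean TPM + 1), with dotted lines at a 2-fold difference. The 4 labelled genes, Sirt5, Kdm5d, Kdm4b and Kdm2b, were over 2-fold higher in the read-based table in every library.

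Replicate 2 tended to give the highest value. Among detected members 35 of 55 (63.6%) were highest there, 13 (23.6%) in replicate 3 and 7 (12.7%) in replicate 1, against 55.7%, 21.9% and 22.4% of detected coding genes. The 7 highest in replicate 1 were Hdac9, Kdm5c, Kmt5a, Setdb2, Sirt2, Sirt6 and Tet2. The median coefficient of variation of the detected members was 19.6%, against 22.7% of detected coding genes.

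Partners and relatives of the members were also present. Of 80 listed genes in 7 lists, 79 were matched and 73 were detected, with a median mean TPM of 13.5. The detection rule was met by 39.4% of all coding genes. Their median mean TPM was 0.373, and 10.01 over the detected ones. All 14 acetyltransferases, which put on the mark that Hdac and Sirt enzymes remove, were detected at a median of 23.1, Crebbp at 29.8 ± 2.02 and Ep300 at 33.7 ± 11.9. The 13 matched genes of deacetylase complexes were detected, led by Ncor1 (149 ± 21.8), the corepressor that activates Hdac3, while Sap30 of the Sin3 complex was lowest (2.71 ± 0.327).

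Of 10 partners of Polycomb repressive complex 2, 9 were detected, Eed at 45.7 ± 18.7, Suz12 at 14.96 ± 4.001 and Aebp2 highest at 91.2 ± 8.47. Epop was not detected (0.09 ± 0.0361). Of 11 subunits of the H3K4 methyltransferase (COMPASS) complexes, 9 were detected, with Ncoa6 highest (21.7 ± 5.42) and Dpy30 and Pagr1a not detected (0.44 ± 0.282 and 0.14 ± 0.242). All 14 other lysine methyltransferases were detected, from Suv39h1, an H3K9 enzyme, at 2.23 ± 0.983 to Nsd3, an H3K36 enzyme, at 122 ± 18.8. Of 8 other genes with the JmjC domain, 6 were detected, with Jmjd1c at 189 ± 29.0, a mean above that of every Kdm member, and the Y-linked Uty and Riox1 below the rule. Of 9 genes listed under DNA methylation reading and repair, 8 were detected, with Mbd3 missing the rule in replicate 1 (0.86, 2.86 and 1.00). The median mean TPM of the 9 was 13.05. Highest was Apobec1, a cytidine deaminase, at 236 ± 45.9, and being listed does not establish a role in DNA methylation.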

How the data were processed

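Ribosomal-RNA-depleted total RNA of the chromatin fraction was sequenced in 3 libraries of 1 group. Per the file headers, the authors' tables are on mm10 with GENCODE M21. The authors deposited expected counts (estimated reads per gene, not whole) and TPM from alignments, and a second table with estimated counts and TPM from reads directly. The programs and the use of strand were not given in the sources used here. Values of overlapping and antisense genes are therefore uncertain. The second tables held 20547303, 34911391 and 32796844 estimated counts in replicates 1, 2 and 3.

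Members, lists and pairs were chosen with earlier results of these data known. Computed with Python 3.11.15, pandas 2.3.3, numpy 2.4.6 and scipy 1.17.1 were means, SDs, log2(TPM + 1) ratios, transcript-class shares and exact sign-flip tests; the code was tested on simulated data. Named genes were the highest and lowest of each family, all Ezh, Tet and Dnmt genes, pair genes, undetected genes, retained-intron genes, those differing between tables and the 3 most and least variable; the reaction groups, shown promoters and motifs were added after the values were seen. Chi-square per degree of freedom between library counts was at least 36.1, so no library was a repeat deposit. Overlapping annotation was found for 38 members, 12 with a coding gene. Alternatives were the read-based table, posterior mean TPM (deposited by the authors), coding transcripts only, CPM, a pseudocount of 0.1, other thresholds and each library left out.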

Additional observations from a re-analysis of the deposited data

How the results depend on the processing

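Of the values under alternatives, 30 moved and 7 reversed. The other 159 kept the sign of a mean ratio, moved a median by less than its SD over libraries, or kept a count within 1.5 times. The cause was not tested. Of the 14 pairs, 10 kept the sign of the mean ratio under all 8 alternatives, but Kdm6b to Kdm6a in the read-based tables (0.17, exact permutation p = 1) and Tet2 to Tet3 over coding transcripts (0.19, exact permutation p = 0.75) no longer had the same sign in every library. The mean changed sign in 4 pairs: Ezh1 to Ezh2 was −0.20 without replicate 2 (−0.20 to 0.28 leaving out each library), Hdac4 to Hdac5 was −0.12 with posterior mean TPM and −0.012 without replicate 1 (−0.012 to 0.20), Kdm5a to Kdm5c was 0.12 in the read-based tables and 0.29 without replicate 1 (−0.25 to 0.29), and Setd1a to Setd1b was −0.056 with CPM and −0.047 without replicate 3 (−0.047 to 0.30). Fold differences moved by over 1.5 times with the same sign in, among others, Kdm5a to Kdm5c (−1.84), Ezh1 to Ezh2 (1.00) over coding transcripts alone, Tet2 to Tet1 (10.05) and Dnmt3a to Dnmt3b (8.03) with a pseudocount of 0.1, Kmt2a to Kmt2b with CPM (2.22) and Setd1a to Setd1b in the read-based tables (1.01). Members detected were 49 (coding transcripts only) to 59 (posterior mean TPM), against 55.

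Family medians of mean TPM in the read-based tables were 45.8 for Kmt, 17.8 for Setd, 18.8 for Ezh, 25.3 for Kdm, 7.70 for Hdac and 26.8 for Sirt. Over protein-coding transcripts only they were 18.2, 8.38, 4.35, 9.58, 3.78 and 3.67. In CPM, which is not corrected for length, they were 139, 58.1, 17.2, 61.4, 13.9 and 25.0, and 411 for Tet. With posterior mean TPM they were 25.0 for Kdm, 7.26 for Hdac and 3.40 for Dnmt. Over members with a mean TPM of at least 1 they were 29.6 for Kdm, 7.49 for Hdac, 50.6 for Dnmt and 113 for Tet.

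The count of retained-intron members was 17 in the read-based tables, which included all 10, 26 at a share over 30%, and 11 to 16 leaving out each library. The count that differed between tables was 2 at 4-fold. No paired analysis was possible because all libraries belong to 1 group. Depth limits the members near 0: Kdm5d, Kdm4d, Dnmt3c, Tet1, Hdac11 and Dnmt3l, among others, rest on few counts.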

Other observations

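Of the 4 entries whose symbols match but which have no protein-coding transcript, Kdm6bos, which overlaps Kdm6b on the opposite strand over 1188 bases, had TPM values of 17.49, 12.23 and 12.83 in replicates 1, 2 and 3 (14.2 ± 2.88). Kdm6bos was highest in replicate 1, where Kdm6b was lowest; without strand information the reads of the 2 genes cannot be told apart. Dnmt3aos was at 2.71 ± 1.20, Kdm4dl at 0.02 and Dnmt3bos at 0.

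Other genes of the sex chromosomes were read beside Kdm5d. Xist had TPM values of 1035, 1030.99 and 1065.29, the Y-linked Ddx3y and Eif2s3y were listed at 0, and Uty was at 0, 0 and 0.03 by alignment and at 6.34 ± 3.75 in the read-based table. Kdm3b-203, a processed transcript of 42 nucleotides, was at 0 by alignment and at 34.7 ± 15.5 in the read-based table, 53.4% of the gene's TPM there.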
